A study of Mus musculus with 8 samples.

Results

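CA1 pyramidal cells were examined as 6725 nuclei, out of the 29425 nuclei of adult mouse hippocampus profiled by single nucleus RNA sequencing (snRNAseq), that the study's own annotation assigned to CA1. The nuclei came from both hippocampi of each of 4 male mice of 12 weeks, 1 library per mouse. Mutant mice were Gfap-Cre;Wlsfl/- and control mice Gfap-Cre;Wlsfl/+, with 2 mice of each genotype, and bulk RNAseq was made from the hippocampi of 2 mice per genotype. Every mouse thus carried the Cre transgene and 1 floxed allele of *Wls*, and the second allele was null in mutants and wild type in controls. Cre is driven by the *Gfap* promoter, which in this line is active in dorsal and medial cortical progenitors during development, and was also carried by the controls. *Wls* encodes Wntless, a chaperone of secreted Wnt proteins, and the mutant is used as a model of a dentate gyrus with few granule cells (DGCs).

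CA1 pyramidal cells are the glutamatergic output neurons of the hippocampus. They receive the Schaffer collaterals of CA3 cells and direct input from the entorhinal cortex, and they project to the subiculum and entorhinal cortex. DGCs reach CA1 by way of CA3. Along the dorsal to ventral axis CA1 cells differ in connections and in gene expression, and within the cell layer superficial and deep cells differ as well. The comparison of genotypes asked whether CA1 cells differ in number or expression when most DGCs are missing.

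The libraries held 26307081 to 76486132 unique molecular identifiers (UMIs, each standing for 1 captured RNA molecule). CA1 nuclei had a median of 5270 and 9098 UMIs in mutant replicates 1 and 2 and 8215 and 12164 in control replicates 1 and 2, so the groups overlapped and mutant replicate 1 was the shallowest. The lowest CA1 nucleus had 1513 UMIs. Of 29338 barcodes, 87 occurred in 2 libraries, and 1 of these was a CA1 barcode in both. Bulk libraries held 56002300 to 79576100 expected counts. The methods describe male mice throughout, but in bulk RNAseq replicate 2 of each genotype went against that: *Xist*, transcribed from the inactive X chromosome, was at 1.44 and 230 CPM (counts per 1000000 of the library) in mutants and 1.05 and 518 CPM in controls, and the Y-linked *Ddx3y* was at 54.5 and 0.352 CPM in mutants and 58.3 and 0.343 CPM in controls. The replicates with the female pattern were thus balanced between genotypes. In CA1 nuclei all 4 mice had *Ddx3y*, at 33.3 and 25.9 CPM in mutants and 48.8 and 31.7 CPM in controls, and *Xist*, which overlaps the antisense gene *Tsix*, stayed at or under 8.03 CPM.

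CA1 nuclei numbered 1547 of 5304 and 2677 of 10460 in mutant replicates 1 and 2, and 1207 of 6469 and 1294 of 7192 in control replicates 1 and 2. Their share of all nuclei was 29.2% (exact 95% binomial interval 27.9 to 30.4, counting error only) and 25.6% (24.8 to 26.4) in mutants, and 18.7% (17.7 to 19.6) and 18.0% (17.1 to 18.9) in controls. Both mutant shares lay above both control shares. The difference did not pass the test over the 21 annotated types, at a log2 fold change of 0.58 (SE 0.467, adjusted p = 0.533 in edgeR's quasi-likelihood test). DGCs made up 1.70% and 4.43% of mutant nuclei and 36.1% and 27.9% of control nuclei. Among nuclei other than DGCs the share of CA1 was 29.7% and 26.8% in mutants and 29.2% and 25.0% in controls, and the groups overlapped. Among CA1, CA2 and CA3 nuclei it was 78.2% and 68.2% in mutants and 68% and 66.9% in controls, where mutant replicate 1 stood above the rest and mutant replicate 2 was close to the controls without overlapping them.

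**Figure D1:**
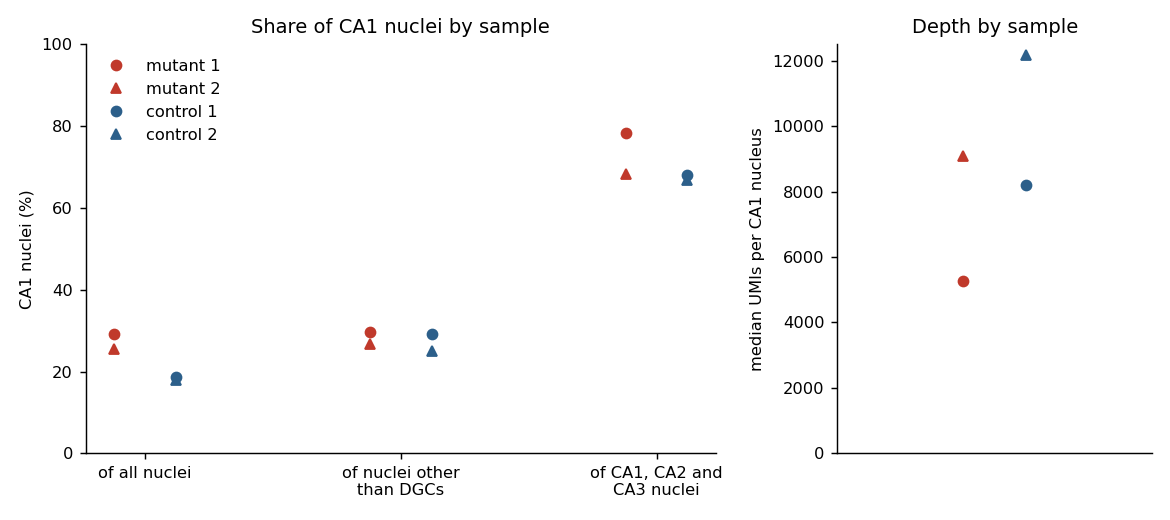
Left, CA1 nuclei as a percentage of 3 totals for each of the 4 samples; right, median UMIs per CA1 nucleus. Both mutant samples are higher out of all nuclei (29.2 and 25.6% against 18.7 and 18.0%), whereas the genotypes overlap among nuclei other than DGCs. Among CA1, CA2 and CA3 nuclei mutant replicate 2 (68.2%) lies just above control replicate 1 (68%).

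The label was checked against 14 CA1 markers over the 18 types with at least 20 control nuclei. Of these, 8 had their highest level in CA1, 2 were second and 4 were lower, down to rank 9 for *Zbtb20*, a transcription factor present in all hippocampal principal cells. Levels are given here as CPM of the UMIs summed over control nuclei. *Fibcd1*, which encodes an acetyl group-binding membrane receptor (chr2:31813290-31846005, minus strand, mm10), stood at 67.9 CPM in CA1 and 11.8 CPM in the next type, excitatory neuron cluster 10. *Ndst4*, a heparan sulfate sulfotransferase gene (chr3:125404076-125728899, plus strand), was at 411 CPM in CA1 and 219 CPM in mossy cells. Both of these separated CA1 from CA3 and CA2. *Wfs1*, encoding the endoplasmic reticulum protein wolframin (chr5:36966104-36989205, minus strand), was at 60.5 CPM in CA1 and higher, at 124 CPM, in excitatory neuron cluster 10. *Mpped1*, a metallophosphoesterase gene (chr15:83779467-83858494, plus strand), reached 188.9 CPM in CA1, 281 CPM in excitatory neuron cluster 8 and 8.73 CPM in CA3. The data therefore fit the label for *Fibcd1* and *Ndst4*. *Wfs1* and *Mpped1* separated CA1 from CA2, CA3, mossy cells and DGCs but not from every other neuron cluster. *Mpped1* was also higher, at 225 CPM, in inhibitory neuron cluster 18. These values are descriptions with no test, since the types were made from the same counts.

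**Figure D2:**
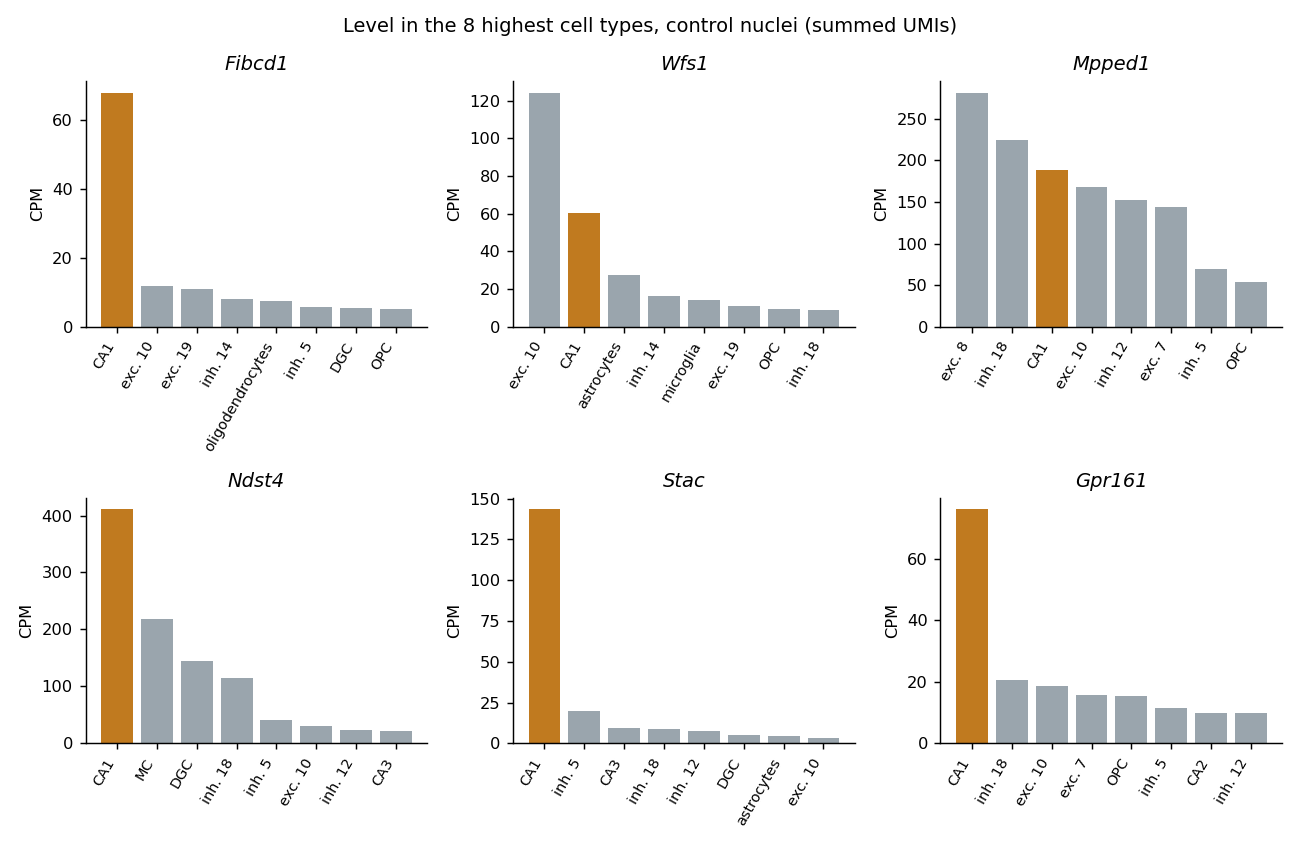
Bars give the CPM of summed UMIs of 6 genes in the 8 cell types of control nuclei where each was highest, with CA1 in orange; DGC, dentate granule cells, MC, mossy cells, exc. and inh., excitatory and inhibitory neuron clusters. *Fibcd1*, *Ndst4*, *Stac* and *Gpr161* peak in CA1, *Wfs1* is second to excitatory cluster 10 and *Mpped1* is lower in rank.

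The 30 genes most enriched in CA1 were ranked by the ratio of control CPM in CA1 to that in the next highest type (pseudocount 1 CPM, at least 50 CPM in CA1). Most ratios were moderate, since 8 of the 30 exceeded 2 and the lowest was 1.41. *Stac*, which encodes an adaptor protein of voltage-gated calcium channels, led the list with 143.5 CPM against 19.8 CPM in inhibitory neuron cluster 5, a ratio of 6.95 (chr9:111561437-111690348, minus strand). Its level was 137 and 133 CPM in mutants and 173 and 125 CPM in controls. *Fibcd1* followed at a ratio of 5.37. *Gpr161*, an orphan receptor of the primary cilium that restrains hedgehog signalling (chr1:165295789-165326745, plus strand), had 76.0 CPM against 20.4 CPM in inhibitory neuron cluster 18. The noncoding pair *4921539H07Rik* and *1700007F19Rik*, which lie on opposite strands of the same stretch of chromosome 3 and whose reads could not be told apart with the counting strand not given, reached ratios of 3.47 and 3.63 over CA2. *Gm10754*, a further noncoding gene, was at 294 CPM against 85.5 CPM in CA3. Urate and glucose transporter gene *Slc2a9* had a ratio of 2.38 over microglia, and *Gm2115* one of 2.35 over CA2. *Traip*, a ubiquitin ligase gene of the DNA damage response, and *Tmem200a* closed the first 10 at 1.99 and 1.97. The membership moved with the settings, in that 27 of the 30 were shared at a minimum of 25 CPM, 21 at 100 CPM and 24 when all 4 samples were used.

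Markers of other cell types were present in CA1 nuclei at levels that varied with the type. The 8 mossy cell markers summed to between 21.8% and 27.5% of their level in mossy cells. CA3 markers were at 6.48% to 10.5% and CA2 markers at 8.24% to 12.6% of their own type's level. The 11 DGC markers summed to 409 and 410 CPM in mutant and 391 and 475 CPM in control CA1 nuclei, between 10.7% and 11.8% of their level in DGCs. Most of this sum did not come from the genes that define DGCs. *Prox1*, the homeobox factor of granule cells, was at 1.42 and 5.99 CPM in mutants and 12 CPM in both controls, and *Dsp*, encoding desmoplakin, at 0.109 and 0.302 CPM in mutants and 2.36 and 1.65 CPM in controls. The 12 inhibitory neuron markers summed to 122 and 228 CPM in mutants and 149 and 158 CPM in controls, at most 1.82% of their own type's level. The 8 choroid plexus markers summed to 26.6 and 83.9 CPM in mutants and 36.7 and 38.0 CPM in controls, and *Ttr*, the transthyretin gene of that epithelium, alone was at 0.765 and 47.4 CPM in mutants and 16.7 and 5.11 CPM in controls.

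CA1 nuclei were not uniform. After every nucleus was thinned to 1500 UMIs, genes were ranked by the variance of their counts over the mean (Fano factor, near 1 for counting noise alone). The lowest value of the 4 samples was 10.6 for *Malat1*, an abundant nuclear noncoding RNA, 6.57 for *Lrrtm4*, a synaptic organiser, 3.54 for *Kcnip4*, a potassium channel subunit, 3.41 for *Tshz2*, a zinc finger transcription factor, and 3.32 for the teneurin *Tenm3*, beside a median of 0.992 over 2890 genes. *Sgcz*, a sarcoglycan gene, and *Brinp3* were also among the first 10. The odds of a *Sgcz* or *Brinp3* UMI were higher in nuclei with a *Tshz2* UMI than in those without. Odds ratios within 5 strata of UMIs were 21.3 and 4.73 in mutants and 32.8 and 9.92 in controls for *Tshz2* and *Sgcz*, and 13.3 and 3.54 in mutants and 9.95 and 4.73 in controls for *Tshz2* and *Brinp3*. *Sgcz* and *Brinp3* themselves had odds ratios of 6.45 and 2.37 in mutants and 4.37 and 2.74 in controls.

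Nuclei with a UMI of both *Tshz2* and *Gm26883*, a noncoding gene on the opposite strand inside it, were then set apart, a group chosen after the values were seen. They numbered 335 and 266 in mutants and 173 and 137 in controls, or 21.7% and 9.94% of mutant and 14.3% and 10.6% of control CA1 nuclei. The share was highest in mutant replicate 1, the groups overlapped, and after thinning it was 15.7% and 5.38% in mutants and 7.21% and 7.42% in controls. These nuclei were poor in part of the CA1 markers in every sample. *Fibcd1* was at 0.093 to 0.297 times its CPM in the remaining CA1 nuclei, *Wfs1* at 0.120 to 0.411 times, and *Man1a*, a Golgi mannosidase gene, at 0.362 to 0.625 times. Other CA1 genes were retained, with *Mpped1* at 1.02 to 1.305 times, *Ndst4* at 1.48 to 2.23 times and *Stac* at 1.77 to 2.80 times. *Fn1*, encoding fibronectin, was at 24.6 to 177 times, *Nts*, the neurotensin gene, at 28.7 to 90.9 times, and *Slc17a6*, the vesicular glutamate transporter VGLUT2, at 7.14 to 18.6 times, whereas *Slc17a7*, which encodes VGLUT1, was at 0.668 to 0.809 times. *Fn1*, *Nts* and *Slc17a6* are on the list of subiculum markers. So are *Tshz2*, which selected these nuclei, and *Gpr101*, an orphan receptor gene, at 3.63 to 10.1 times. The remaining 2 genes of that list, *Ly6g6e* and *Dlk1*, were at or under 2.09 CPM in both sets of nuclei and were not higher in every sample. The nuclei were given no name. Their median depth was 5636 and 11103.5 UMIs in mutants and 11167 and 14192 UMIs in controls, above that of the remaining nuclei in each sample. In control CA1 nuclei *Tshz2*, *Gm26883* and *Sgcz* were at 199, 132 and 307 CPM of summed UMIs. Excitatory neuron cluster 7 held 2652, 1940 and 3825 CPM of them. *Brinp3* was at 362 CPM in CA1 and 1741 CPM in excitatory neuron cluster 8. *Fn1*, *Ndst4* and *Stac* were lower in cluster 7, at 1.66, 5.30 and 2.98 CPM, than in CA1, at 34.1, 411 and 143.5 CPM. The part of nuclei or transcripts of those clusters in these values was not tested.

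**Figure D3:**
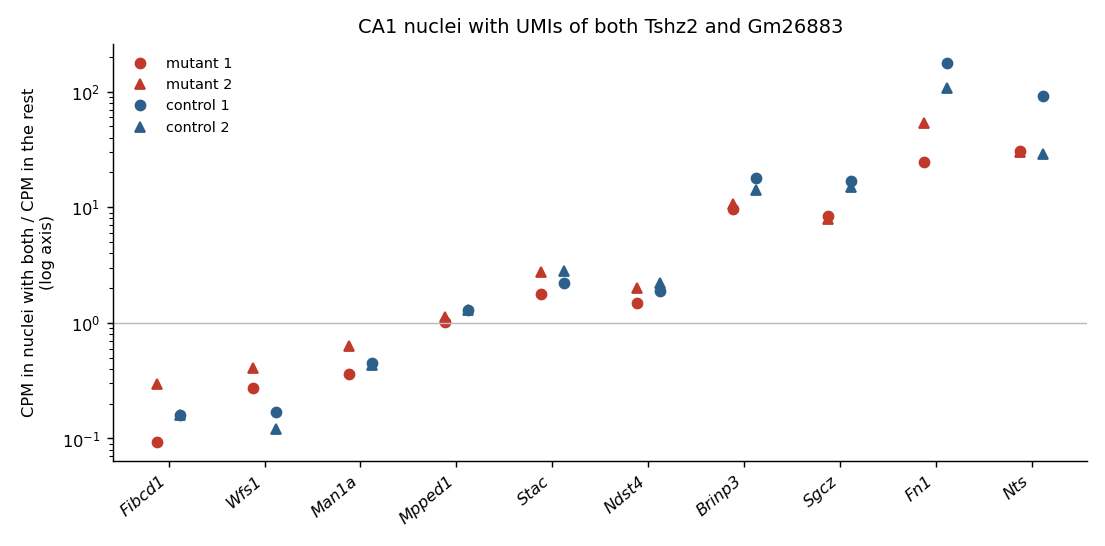
Each point is the CPM of 1 gene in CA1 nuclei holding UMIs of both *Tshz2* and *Gm26883* divided by its CPM in the remaining CA1 nuclei of that sample, on a log axis with a line at 1. *Fibcd1*, *Wfs1* and *Man1a* lie below the line and *Brinp3*, *Sgcz*, *Fn1* and *Nts* well above it in all 4 samples.

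Genes of the dorsal to ventral axis gave a weaker pattern. Co-detection was computed for 5 dorsal genes (*Wfs1*, *Spink8*, *Fibcd1*, *Mpped1* and *Nov*) and 4 ventral genes (*Dcn*, *Htr2c*, *Nr2f2* and *Grp*). Pairs of ventral genes had median odds ratios of 2.16 and 2.93 in mutants and 1.43 and 3.58 in controls over 6 pairs, and each pair was above 1 in each mouse except *Dcn* and *Grp* in control replicate 1, at 0.473 with 1 nucleus holding both. Pairs of dorsal genes had medians of 0.881 and 1.03 in mutants and 1.02 and 1.14 in controls over 10 pairs, and pairs of a dorsal and a ventral gene 0.818 and 0.896 in mutants and 1.00 and 0.928 in controls over 20 pairs. These last medians join dorsal genes that went opposite ways. *Wfs1* was below 1 with each of the 4 ventral genes in each mouse (0.262 to 0.928), whereas *Nov*, a secreted matricellular protein gene, was above 1 with each of them (up to 3.22) except *Grp* in control replicate 1 (0.946). *Nov*, listed as dorsal, was also below 1 in each mouse with *Wfs1* (0.544 to 0.678) and *Spink8* (0.714 to 0.864). So was *Wfs1* with *Mpped1* (0.750 to 0.871). *Fibcd1* was above 1 in each mouse with *Wfs1* (1.08 to 1.44), *Spink8* (1.10 to 1.49) and *Mpped1* (1.07 to 1.47). Nuclei of a mouse share a library, so these are descriptions.

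For the comparison of genotypes, the UMIs of CA1 nuclei were summed per mouse and tested with edgeR for 16785 genes, and CPM values from here on are scaled by TMM factors unless stated. *Wls* was considered first (chr3:159839672-159938664, plus strand). It was at 3.93 and 4.86 CPM in mutants and 17.1 and 14.5 CPM in controls. Both mutant values lay far below both control values, at a log2 fold change of -1.82 (SE 0.234). This was the lowest p of all genes, but its adjusted p of 0.421 in edgeR did not pass. The call depended on the setting, since the adjusted p was 0.000224 in DESeq2, 0.00421 in edgeR without a filter on low counts, 0.00106 with the replicate number as a block, 0.512 with the crossed block, and 0.00647 to 0.0371 when 1 sample was left out. Tested on its own in inhibitory neurons, *Wls* passed in edgeR, at a log2 fold change of -1.69 and an adjusted p of 0.0318. In CA3 its log2 fold change was -0.45 (SE 0.420, adjusted p = 0.706 in edgeR). The genotype difference in CA1 minus that in CA3 was -1.34 (SE 0.352, adjusted p = 0.177 in edgeR). After thinning, 0.582% and 0.822% of mutant and 2.32% and 2.24% of control CA1 nuclei held a *Wls* UMI, and without thinning 2.33% and 4.30% of mutant and 11.8% and 14.9% of control nuclei. In inhibitory neuron cluster 5, at lower median depths, 7.74% and 14.6% of mutant and 25.2% and 38.5% of control nuclei held one, so that *Wls* was lower in mutants there too. The part of *Wls* that Cre deletes is not given in the sources used here, so reads of the remaining exons and introns may still be counted.

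No CA1 gene passed FC > 2 and FDR < 0.05, the threshold of the study, when tested in edgeR by quasi-likelihood (0% of genes higher, 0% lower), and the lowest adjusted p was 0.421. On simulated data the same thresholds recovered 25% of genes changed 2-fold and 86.5% of those changed 3-fold, so 2-fold changes could be missed. At an unadjusted p under 0.05 there were 1678 genes, 10% of those tested, with 772 higher (4.6%) and 906 lower (5.4%) in mutants. Of all genes, 22.3% were higher and 21% lower in both mutants than in both controls. DESeq2 called 7 genes higher and 17 lower, and leaving out 1 of the 4 samples in turn gave 22 to 92 called genes, so the count of 0 depended on the test and on which samples were used. The genes below are therefore given by their values. Log2 fold changes of edgeR stand in parentheses, and in that test no adjusted p in CA1 was under 0.421. Of the 20 genes named next for the lowest p in each direction, 17 had an adjusted p under 0.05 in DESeq2, namely the 10 lower ones and *Gm15261*, *Unc5d*, *Gm48742*, *Mid1*, *4930587E11Rik*, *Npcd* and *Gm15577*.

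The genes lower in mutants with the lowest p, beside *Wls*, were led by *Ubb*, a polyubiquitin gene, which was at 39.4 and 32.0 CPM in mutants and 81.8 and 96.5 CPM in controls (log2 fold change -1.33, SE 0.176). It was followed by *Spcs1*, a subunit of the signal peptidase, at 14.4 and 12.5 CPM in mutants and 35.6 and 30.6 CPM in controls (-1.31, SE 0.184). *Spcs1* overlaps the more abundant *Glt8d1* on the opposite strand, which was at 102 and 119 CPM in mutants and 143 and 137 CPM in controls (-0.33), so its counts are uncertain. *Ahsa1*, which encodes an activator of the HSP90 ATPase, was at 20.9 and 24.8 CPM in mutants and 48.8 and 60.9 CPM in controls (-1.26, SE 0.183). The genotypes do not overlap for any gene named here for its p, since only genes without overlap were taken. *Cnih2*, an auxiliary subunit of AMPA receptors, was at 44.9 and 53.4 CPM in mutants and 106 and 92.9 CPM in controls (-1.01, SE 0.165). *Pcp4*, a calmodulin-binding peptide best known as a CA2 marker, was at 5.02 and 5.54 CPM in mutants and 15.2 and 12.2 CPM in controls (-1.36, SE 0.232). *Hsph1*, described with the stress genes, *Cst3*, encoding cystatin C (-0.95), *Ift20*, an intraflagellar transport gene (-0.82), and *Bsg*, encoding basigin (-1.11), completed the 10. The same 9 genes beside *Wls* had negative log2 fold changes in CA3, CA2 and inhibitory neurons as well, as for *Ubb* at -1.53, -1.44 and -1.50. In bulk RNAseq *Ubb*, *Spcs1*, *Ahsa1*, *Hsph1*, *Cnih2*, *Cst3* and *Bsg* had log2 fold changes between 0.02 and 0.45, without the sign seen in nuclei, while *Pcp4* (-0.60) and *Ift20* (-0.02) were negative there too.

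The genes higher in mutants with the lowest p were led by *Gm15261*, a noncoding gene, at 10.2 and 10.8 CPM in mutants and 2.27 and 3.46 CPM in controls (log2 fold change 1.84, SE 0.280). It lies on the opposite strand of *Arhgap6*, itself at a log2 fold change of 0.78. *Unc5d*, a netrin receptor of the axon guidance family (chr8:28646717-29219636, minus strand), was at 60.1 and 76.3 CPM in mutants and 34.6 and 34.2 CPM in controls (0.99, SE 0.171). *Mid1*, a microtubule-associated ubiquitin ligase gene, was at 32.3 and 32.8 CPM in mutants and 18.0 and 14.9 CPM in controls (0.99, SE 0.177). On this side too only genes without overlap between genotypes were taken. *Dtx4*, a regulator of Notch signalling, was at 31.2 and 38.1 CPM in mutants and 19.1 and 18.9 CPM in controls (0.87, SE 0.175). *Fam111a*, a protease gene of DNA replication, was at 11.2 and 9.91 CPM in mutants and 5.10 and 4.43 CPM in controls (1.15, SE 0.236). The other 5, *Gm48742* (1.16), *4930587E11Rik* (0.90), *Npcd* (1.58), *Zmiz1os1* (0.77) and *Gm15577* (1.15), are noncoding or overlap a longer gene. *4930587E11Rik*, *Gm15577* and *Zmiz1os1* lie opposite *Cntn3*, *Negr1* and *Zmiz1*, and *Npcd* shares its strand with *Nptxr*, so their counts are uncertain. All of these higher genes also had positive log2 fold changes in CA3 (0.19 to 1.92) and in inhibitory neurons (0.20 to 0.94). In CA2 *Gm15261* (-0.50), *Unc5d* (-0.34) and *4930587E11Rik* (-0.37) were negative. *Mid1*, *Dtx4*, *Fam111a* and *Gm15577* were positive in CA2, and the others were not tested there. *Trps1*, a transcriptional repressor, and *Cntnap5a*, a neurexin family gene, were not separated in CA1, with log2 fold changes of 0.09 and 0.04 and overlapping groups.

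**Figure D4:**
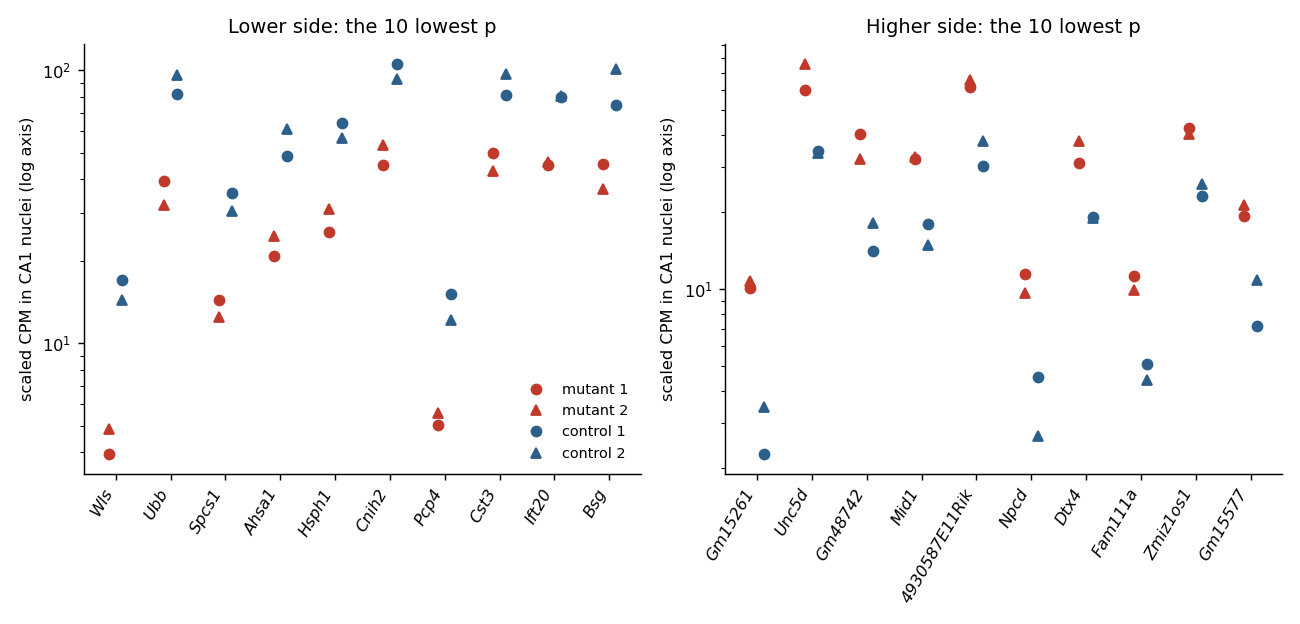
TMM-scaled CPM in CA1 nuclei, on log axes, of the 10 genes with the lowest p on the lower (left) and higher (right) side in mutants; each point is 1 mouse. Mutant and control points do not overlap for any of the 20, which is how they were chosen, and none had an adjusted p under 0.05 in edgeR, whereas 17 did in DESeq2.

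Among the 14 CA1 markers, 1 was higher (7.14%, against 22.3% of all genes) and 5 lower (35.7%, against 21%) in both mutants than in both controls. At p under 0.05, 1 was higher (7.14%, against 4.6%) and 2 lower (14.3%, against 5.4%), and the median log2 fold change was -0.17, beside 0.01 over all genes. *Mpped1* was at 252 and 280 CPM in mutants and 172 and 199 CPM in controls (0.52, SE 0.160). *Wfs1* went the other way, at 33.3 and 38.1 CPM in mutants and 65.1 and 57.8 CPM in controls (-0.78, SE 0.160). *Spink8*, a protease inhibitor gene, was at 15.6 and 16.7 CPM in mutants and 23.5 and 24.8 CPM in controls (-0.58). *Fibcd1*, with 48.5 and 83.8 CPM in mutants and 60.6 and 72.3 CPM in controls, and *Ndst4*, with 506 and 338 CPM in mutants and 527 and 342 CPM in controls, did not separate the genotypes. For *Ndst4* the 2 replicates of each genotype differed more than the genotypes. The 30 enriched genes had a median of -0.11, with 1 higher (3.33%, against 22.3% of all genes) and 6 lower without overlap (20.0%, about the 21% of all genes).

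Markers that vary along the dorsal to ventral axis were compared next. Of 8 ventral genes that passed the filter, 4 were higher in both mutants than in both controls (50.0%, against 22.3% of all genes) and none was lower (against 21%). At p under 0.05, 3 were higher (37.5%, against 4.6%), and the median log2 fold change was 0.80. *Htr2c*, the serotonin 2C receptor gene, was at 79.2 and 57.6 CPM in mutants and 38.2 and 49.2 CPM in controls (0.64). *Col5a1*, a collagen gene, was at 3.93 and 3.66 CPM in mutants and 1.61 and 1.82 CPM in controls (1.13). *Trhr*, the thyrotropin-releasing hormone receptor gene, was at 1.97 and 2.71 CPM in mutants and 0.945 and 1.19 CPM in controls (1.14). *Nr2f2*, *Dcn* and *Grp* overlapped between genotypes. Several of these values rest on few UMIs, with 17 and 32 UMIs of *Col5a1* and 10 and 21 of *Trhr* in control CA1 nuclei. Most of the list was also far higher in other types. In control nuclei *Col5a1* had 1.74 CPM of summed UMIs in CA1 and 59.8 CPM in inhibitory neuron cluster 14, *Dcn* 11.8 and 581 CPM, and *Nr2f2* 13.0 and 563 CPM, while *Gpc3* had 4.26 CPM in CA1 and 283 CPM in excitatory neuron cluster 19. The part of transcripts of those types in the CA1 values was not tested. The 7 dorsal genes, which include *Mpped1*, *Wfs1*, *Fibcd1* and *Spink8*, had a median of -0.01, with 1 higher (14.3%, against 22.3% of all genes) and 3 lower (42.9%, against 21%) without overlap. Among 7 genes of the radial axis none had p under 0.05, and *Zbtb20*, at 1266 and 1495 CPM in mutants and 1882 and 1603 CPM in controls, and *Sox5*, at 341 and 230 CPM in mutants and 228 and 190 CPM in controls, had log2 fold changes of -0.34 and 0.45. The ventral list had medians of 0.64 in CA3, 1.63 in CA2 and -0.02 in inhibitory neurons of the same mice. In bulk RNAseq its median was -0.04, with 3 members higher and 4 lower without overlap, where 25.8% of all genes were higher and 25.4% lower. *Trhr* (-1.30) and *Col5a1* (-0.28) were on the lower side there. In control nuclei the 4 lower members, *Trhr*, *Gpc3*, *Grp* and *Col5a1*, were at 7.13, 12.9, 19.9 and 2.68 CPM of summed UMIs in DGCs. In CA1 they were at 1.10, 4.26, 15.0 and 1.74 CPM. The 3 higher ones, *Dcn*, *Htr2c* and *Nr2f2*, were at 1.81, 9.44 and 10.3 CPM in DGCs and 11.8, 45.1 and 13.0 CPM in CA1. The part of DGCs and other types in the bulk values was not tested.

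Most genes of receptors and channels overlapped between the genotypes. Members named in this and the next paragraphs for a p under 0.05 were chosen after their values were seen, and the others are the most abundant of each list. Among 16 AMPA and NMDA receptor genes the median log2 fold change was 0.06. The abundant subunits *Grin2a* (-0.01, SE 0.182), *Gria1* (0.14, SE 0.191), *Grin2b* (0.03, SE 0.160) and *Gria2* (0.06, SE 0.238) overlapped between genotypes. Among less abundant genes, 3 had p under 0.05 on the higher side. *Gria4*, an AMPA receptor subunit, was at 194 and 162 CPM in mutants and 111 and 122 CPM in controls (0.61). *Shisa9*, an AMPA receptor auxiliary subunit, was at 135 and 137 CPM in mutants and 71.5 and 99.2 CPM in controls (0.67). *Grin3a*, an NMDA receptor subunit of immature synapses, was at 149 and 105 CPM in mutants and 56.9 and 87.3 CPM in controls (0.81). With *Cnih2* on the lower side, 4 of the 16 had p under 0.05 (18.8% higher, against 4.6% of all genes, and 6.25% lower, against 5.4%). Long genes were higher at p under 0.05 more often, at 7.81% of those of 100 to 300 kb and 13.1% of those over 300 kb. The receptor and channel lists were not matched for length.

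Among 13 kainate and metabotropic glutamate receptor genes the median was 0.23. *Grm5*, the most abundant, was at -0.01 (SE 0.204) and *Grm7* at 0.16 (SE 0.159). *Grik3*, a kainate receptor subunit, was at 24.1 and 23.2 CPM in mutants and 8.69 and 14.1 CPM in controls (1.03), and *Grm3*, a group II metabotropic receptor gene, at 120 and 87.6 CPM in mutants and 69.7 and 64.8 CPM in controls (0.63). *Neto2*, a kainate receptor auxiliary subunit, was lower, at 42.0 and 52.2 CPM in mutants and 80.7 and 64.9 CPM in controls (-0.62). The 16 genes of GABA receptors and the inhibitory synapse had a median of 0.03, with *Gabra3* (0.53) and *Gabbr1* (-0.39) at p under 0.05 and the abundant *Gabrb1* and *Gphn* overlapping.

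Potassium and HCN channel genes, 23 in number, also had a median of 0.03. *Kcnip4*, *Kcnd2*, *Kcnh7* and *Kcnq5*, the most abundant, overlapped between genotypes, whereas *Dpp10*, an auxiliary subunit of A-type channels, was at 149 and 85.1 CPM in mutants and 62.0 and 58.3 CPM in controls (0.96) and *Kcnd3*, a pore-forming subunit of the same channels, at 152 and 168 CPM in mutants and 82.1 and 116 CPM in controls (0.69). The 17 sodium and calcium channel genes had a median of 0.10.

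In genes of plasticity and calcium signalling, 21 members had a median of 0.01. *Camk2a*, the main kinase of long-term potentiation, was at 1066 and 1484 CPM in mutants and 1508 and 1524 CPM in controls (-0.25, SE 0.196). *Camk2d*, another subunit of that kinase, was at 37.6 and 39.4 CPM in mutants and 21.2 and 27.4 CPM in controls (0.66). *Nrgn*, encoding the calmodulin buffer neurogranin, was lower at 212 and 195 CPM in mutants and 319 and 323 CPM in controls (-0.66). In control nuclei *Nrgn* was higher in DGCs, at 399 CPM of summed UMIs, than in CA1, at 321 CPM. The part of DGC transcripts in its CA1 values was not tested. *Homer1*, a scaffold of metabotropic receptors with an activity-dependent short form, was at 306 and 212 CPM in mutants and 592 and 346 CPM in controls (-0.86). It also belongs to the list of 16 immediate early genes, at a median of -0.18. None of these was higher without overlap (against 22.3% of all genes) and 5 were lower (31.2%, against 21%). *Arc*, an activity-induced synaptic gene, was at 46.3 and 29.6 CPM in mutants and 107 and 47.1 CPM in controls (-1.03). *Fos*, at 18.6 and 8.14 CPM in mutants and 23.4 and 8.63 CPM in controls, *Nr4a1* and *Junb* overlapped, and the mice of a genotype differed more than the genotypes.

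Synaptic adhesion and axon guidance genes are mostly long, and their counts are read beside those of long genes. Of all genes tested, 22.3% were higher and 21% lower without overlap, while among genes of 100 to 300 kb 32.4% were higher and 9.3% lower, and among genes over 300 kb 40.1% and 3.54%. Of 26 adhesion genes 8 were higher without overlap (30.8%) and none lower, 4 had p under 0.05 on the higher side (15.4%, against 4.6% of all genes and 13.1% of those over 300 kb) and the median log2 fold change was 0.14. *Cntn5*, a contactin gene, was at 607 and 395 CPM in mutants and 256 and 284 CPM in controls (0.89). *Ntng1*, a netrin-G gene, was at 516 and 361 CPM in mutants and 281 and 311 CPM in controls (0.56), and the teneurin *Tenm1* at 277 and 296 CPM in mutants and 177 and 221 CPM in controls (0.52). Of 27 axon guidance genes 8 were higher (29.6%) and 2 lower (7.41%) without overlap, at a median of 0.07. *Slit2*, a repulsive ligand of Robo receptors, was at 95.8 and 84.3 CPM in mutants and 51.6 and 60.8 CPM in controls (0.68), and *Ephb1*, a receptor of ephrin-B ligands, at 28.1 and 26.4 CPM in mutants and 17.5 and 19.1 CPM in controls (0.57). *Sema5a*, a semaphorin gene, was lower, at 7.32 and 13.5 CPM in mutants and 25.4 and 19.9 CPM in controls (-1.08). The most abundant, *Epha6*, *Slit3*, *Epha5* and *Dcc*, lay between -0.27 and 0.27 and had p above 0.05.

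Wnt pathway genes, 26 with enough counts, had a median of 0.07. Beside *Wls*, only *Rspo2*, a secreted amplifier of Wnt signalling, had p under 0.05, at 82.7 and 46.4 CPM in mutants and 33.4 and 38.6 CPM in controls (0.83). *Axin2*, a feedback target of beta-catenin signalling, was at 5.35 and 6.29 CPM in mutants and 4.63 and 4.71 CPM in controls, and *Ctnnb1*, which encodes beta-catenin, at 33.4 and 36.3 CPM in mutants and 37.3 and 39.4 CPM in controls. *Tcf4*, *Apc*, *Dkk3* and *Ror1*, the most abundant members, lay between -0.07 and 0.15. Receptors of neurotrophins, peptides and modulators, 17 in all, had a median of 0.07, and *Npy1r*, a neuropeptide Y receptor gene, was at 17.4 and 14.7 CPM in mutants and 11.2 CPM in both controls (0.51).

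Stress and heat shock genes stood apart from the other lists. Of 13 members 12 passed the filter, and 11 of them were lower in both mutants than in both controls (91.7%, against 21% of all genes). Of the 12, 6 were lower at p under 0.05 (50.0%, against 5.4% of all genes), and the median log2 fold change was -0.64. Among all genes under 5 kb, 31.5% were lower without overlap and 11.8% were lower at p under 0.05. The list was not matched for length. *Hspa8*, the constitutive cytosolic HSP70 gene, was at 43.8 and 31.3 CPM in mutants and 62.4 and 102 CPM in controls (-1.15, SE 0.263). *Hspa5*, encoding the endoplasmic reticulum chaperone BiP, was at 34.4 and 23.2 CPM in mutants and 49.2 and 68.4 CPM in controls (-1.05, SE 0.239). *Hsph1*, a co-chaperone of HSP70, was at 25.7 and 31.1 CPM in mutants and 64.2 and 56.5 CPM in controls (-1.08, SE 0.171). The genotypes did not overlap for any of these chaperones. *Hsp90aa1*, the inducible HSP90 gene, was at 29.3 and 25.7 CPM in mutants and 35.7 and 52.5 CPM in controls (-0.69). *Fkbp5*, a glucocorticoid-induced co-chaperone, was at 46.2 and 65.4 CPM in mutants and 93.8 and 75.4 CPM in controls (-0.59). *Hspa1b*, an inducible HSP70 gene, was at 1.09 and 1.39 CPM in mutants and 3.21 and 2.27 CPM in controls (-1.08), and its reads can be confused with those of its near-identical neighbour *Hspa1a*. *Sgk1*, a kinase gene that is also induced by glucocorticoids, was the exception at 89.9 and 90.6 CPM in mutants and 80.8 and 85.7 CPM in controls (0.12). The same list had medians of -0.79 in CA3, -0.85 in CA2 and -0.88 in inhibitory neurons of the same libraries, so the pattern was not seen in CA1 alone. In bulk RNAseq its 13 members had a median of 0.02, with 3 higher and 1 lower without overlap, where 25.8% of all genes were higher and 25.4% lower.

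As these members shared a direction, their promoters were searched for the core of the heat shock element, the site bound by heat shock factors, written as GAANNTTC or TTCNNGAA (both read the same on either strand). Of 11 members with a RefSeq window of 250 bases before the transcription start (GRCm38.p6), 4 held at least 1 of the motifs, beside 14.5% of 27025 genes. The list holds heat shock genes by choice, so this share says nothing about the genotypes. Among the 4, *Hspa1a* and *Hspa1b* are near-identical, and *Sgk1* was searched in 6 windows. The windows of *Hspa1b* (chr17:34959239-34959488, minus strand) and *Hsph1* (chr5:149636337-149636586, minus strand) are shown as the 2 lower members with a match that are not duplicates of each other, 5′ to 3′ with the motif in capitals, which ends 97 and 26 bases before the start.
Hspa1b: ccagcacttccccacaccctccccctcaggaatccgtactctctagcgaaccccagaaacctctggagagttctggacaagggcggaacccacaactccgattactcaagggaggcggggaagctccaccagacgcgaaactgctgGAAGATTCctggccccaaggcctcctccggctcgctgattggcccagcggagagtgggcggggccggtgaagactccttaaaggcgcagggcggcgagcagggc
Hsph1: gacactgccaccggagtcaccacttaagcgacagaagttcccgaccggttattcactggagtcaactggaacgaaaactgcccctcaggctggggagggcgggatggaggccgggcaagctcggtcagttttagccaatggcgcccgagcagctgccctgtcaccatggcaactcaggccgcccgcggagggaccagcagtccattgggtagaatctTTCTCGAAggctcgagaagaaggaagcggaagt
*Hspa1a* and *Sgk1* also held a match, and *Sgk1* was not lower. A match describes these letters only, and *Hspa5*, *Dnajb1* and *Fkbp5* were low in mutants with no match in their windows.

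Oxidative phosphorylation, ribosomal and housekeeping genes shared the direction of the stress genes. Of 23 members none was higher (against 22.3% of all genes) and 10 were lower without overlap (43.5%, against 21%). At p under 0.05, 5 were lower (21.7%, against 5.4% of all genes), and the median was -0.27. Short genes as a whole leaned the same way. Without overlap, 31.5% of genes under 5 kb and 28.3% of those of 5 to 20 kb were lower. At p under 0.05, 11.8% and 7.8% of these classes were lower. The members were not matched for length. *Actb*, encoding beta-actin, was at 104 and 64.6 CPM in mutants and 212 and 130 CPM in controls (-1.03), and *Ndufa4*, a respiratory chain subunit, at 31.7 and 25.9 CPM in mutants and 48.2 and 51.4 CPM in controls (-0.80). *Snap25*, a synaptic fusion protein gene and the most abundant, was at 883 and 794 CPM in mutants and 868 and 789 CPM in controls (0.02). The list had medians of -0.33 in CA3, -0.38 in CA2 and -0.33 in inhibitory neurons, and of 0.13 in bulk RNAseq. DGC markers were also lower in CA1 nuclei, with 6 of 11 lower (54.5%, against 21% of all genes) and 1 higher (9.09%, against 22.3%) without overlap and a median of -0.41, beside DGC shares of 1.70% and 4.43% of mutant and 36.1% and 27.9% of control nuclei. *Prox1* and *Dsp* had log2 fold changes of -1.56 and -2.98. The part of transcripts from outside the nucleus in these values was not tested.

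The genotype difference varied with gene length. In CA1 the median log2 fold change was -0.13 for 1872 genes under 5 kb, -0.06 for 5129 genes of 5 to 20 kb, 0.03 for 7088 genes of 20 to 100 kb, 0.12 for 2086 genes of 100 to 300 kb and 0.16 for 594 genes over 300 kb. Genes lower at p under 0.05 made up 11.8% of the shortest class and 0.842% of the longest, and genes higher at p under 0.05 made up 2.99% and 13.1%. The same order of medians was seen in CA3, from -0.21 to 0.25, in CA2, from -0.31 to 0.24, and in inhibitory neurons, from -0.20 to 0.14. *Ubb*, *Spcs1*, *Cst3* and *Cnih2* of the lower side are short genes, and *Unc5d* and *Mid1* of the higher side span more than 300 kb. The part of length in the values of single genes was not tested.

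**Figure D5:**
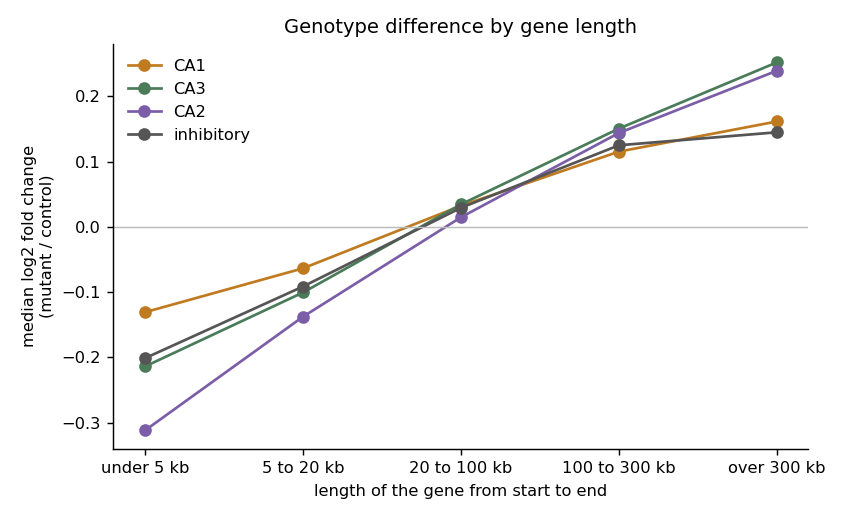
Median log2 fold change (mutant over control) of genes in 5 classes of length, for CA1, CA3, CA2 and inhibitory neurons; each line joins the classes of 1 cell type. In CA1 the median goes from -0.13 under 5 kb to 0.16 over 300 kb, and the other types follow the same order.

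Whether the genotype difference in CA1 was unlike that in other neurons was tested by the interaction of cell type and genotype within the same 4 mice. Against CA3 (2475 nuclei), 13 genes had a more positive difference in CA1 (0.0775% of 16769 genes) and 5 a more negative one (0.0298%) at FC > 2 and FDR < 0.05. *Ephb1* was at 28.2 and 26.6 CPM of summed UMIs in mutant and 16.9 and 19.5 CPM in control CA1 nuclei, and at 110 and 138 CPM in mutant and 189 and 196 CPM in control CA3 nuclei. It was thus higher in mutant CA1 and lower in mutant CA3, and the log2 difference between them was 1.13 (SE 0.137, adjusted p = 0.014 in edgeR). *Camk2d* had the same opposition, at 37.7 and 39.5 CPM in mutant and 20.4 and 28.0 CPM in control CA1 nuclei against 25.9 and 26.5 CPM in mutant and 54.6 and 38.6 CPM in control CA3 nuclei (1.41, SE 0.238, adjusted p = 0.0438 in edgeR). *C1ql3*, a secreted synaptic organiser, was at 130 and 115 CPM in mutant and 81.5 and 148 CPM in control CA1 nuclei, which overlapped, and at 12.2 and 21.3 CPM in mutant and 34.6 and 52.3 CPM in control CA3 nuclei (1.24, SE 0.199). It is also a DGC marker. *Cpne9*, a copine gene of mossy cells, was near 3 CPM in CA1 and at 21.4 and 23.2 CPM in mutant and 64.7 and 48.7 CPM in control CA3 nuclei (1.81, SE 0.247). *Sema5b* and *Sash1* had log2 fold changes of -1.75 and -1.04 in CA3, while both were at 0.04 in CA1. *Mpped1*, whose difference between CA1 and CA3 was -0.97 (adjusted p = 0.0298 in edgeR), had log2 fold changes of 0.52 in CA1 and 1.45 in CA3 and fell just short of 2-fold.

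Against CA2 (415 nuclei), 11 genes had a more positive difference in CA1 (0.0725% of 15182 genes) and 5 a more negative one (0.0329%). CA2 was the thinnest type, with 65 to 166 nuclei per mouse. *Unc5d* was at 60.2 and 76.7 CPM of summed UMIs in mutant and 33.4 and 34.9 CPM in control CA1 nuclei, and at 74.3 and 60.7 CPM in mutant and 85.0 and 89.3 CPM in control CA2 nuclei (1.47, SE 0.214, adjusted p = 0.00102 in edgeR). *Shisa9* had 135 and 137 CPM in mutant and 69.1 and 101 CPM in control CA1 nuclei against 95.3 and 132 CPM in mutant and 173 and 148 CPM in control CA2 nuclei (1.11, SE 0.206). Both were higher in mutant CA1 and lower in mutant CA2. In CA3 *Unc5d* was on the higher side in mutants as in CA1, at a log2 fold change of 0.89, and the difference between CA1 and CA3 was 0.11 (SE 0.123). *Gm15261*, and *Arhgap6* that overlaps it, had differences of 2.37 and 1.49. *4921539H07Rik* was lower in mutant CA1, at 150 and 271 CPM against 441 and 339 CPM, and not in CA2, at 103 and 206 CPM against 101 and 113 CPM (-1.40, SE 0.195), and its overlapping partner *1700007F19Rik* had a difference of -1.55. *Erbb4*, the neuregulin receptor gene, was at 42.6 and 93.8 CPM in mutant and 36.5 and 49.5 CPM in control CA1 nuclei and at 150 and 195 CPM in mutant and 40.6 and 27.3 CPM in control CA2 nuclei (-1.71, SE 0.267). It is also an inhibitory neuron marker. *Sst*, the somatostatin gene of interneurons, had a difference of 2.86 that rests on 4 and 7 UMIs in mutant and 8 and 46 UMIs in control CA2 nuclei.

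Beside these calls, 8.72% of genes against CA3 and 5.64% against CA2 had an unadjusted p under 0.05. Tested on their own, the genotypes differed at FC > 2 and FDR < 0.05 for 0% of genes in CA3 (12.5% at an unadjusted p under 0.05), 0.00992% in CA2 (9.1%) and 0.0136% in inhibitory neurons (11.1%).

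Against inhibitory neurons (3142 nuclei of clusters 5, 12 and 18) no gene passed edgeR's test, 0% in either direction, while 1099 of 17103 genes (6.43%) had an unadjusted p under 0.05. DESeq2 was not run on this difference. *Unc5d* was among the lowest p, at 1210 and 1479 CPM in mutant and 1099 and 1272 CPM in control inhibitory nuclei (difference 0.76, SE 0.131, adjusted p = 0.385 in edgeR). The 3 differences share the CA1 sums and are not independent of each other.

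In bulk RNAseq, 24 of the 30 CA1-enriched genes were among the 20687 tested. Fewer cells of a type and less RNA per cell cannot be told apart in tissue RNA, and the part of the higher share of CA1 nuclei in mutants (29.2% and 25.6% against 18.7% and 18.0%) in these values was not tested. None of the 24 passed FC > 3 and FDR < 0.05 in edgeR (0.0193% of all genes passed on the higher side and 0.198% on the lower), 15 had an unadjusted p under 0.05 on the higher side (8.86% of all genes) and 1 on the lower, and DESeq2 called none either. Of the 24, 17 were higher in both mutants than in both controls (25.8% of all genes) and 2 lower (25.4%), and their median log2 fold change was 0.32, beside 0.01 over all genes. Markers of other cell types moved in the same tissue. The 12 inhibitory neuron markers had a median of 0.30 with 10 higher and 1 lower without overlap, the 7 oligodendrocyte markers 0.32 with 1 higher and 1 lower, the 8 choroid plexus markers 3.76 with all 8 higher, and the 11 DGC markers -1.72 with all 11 lower. Their part in the values of CA1 genes was not tested. *Fibcd1* was at 148 and 181 CPM in mutant and 84.8 and 113 CPM in control tissue (0.74, SE 0.162, adjusted p = 0.114 in edgeR), whereas its groups overlapped within CA1 nuclei. *Gpr161* was at 104 and 118 CPM in mutants and 57.7 and 84.7 CPM in controls (0.64), and *Stac* at 4.40 and 5.53 CPM in mutants and 2.69 and 3.47 CPM in controls (0.69). *Wfs1*, lower in mutant CA1 nuclei, had a log2 fold change of 0.44 in tissue. *Wls* was at 3.67 and 6.86 CPM in mutants and 13.2 and 13.0 CPM in controls (-1.31, adjusted p = 0.117 in edgeR). The bulk values hold 1 replicate per genotype with the female pattern of *Xist*, and its effect on the comparison of genotypes was not tested.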

How the data were processed

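In snRNAseq, reads were mapped by the authors with Cell Ranger (3.1.0 per the labels) to mm10 transcripts including introns. They deposited, without normalization, the UMI count of each of 24051 genes in each nucleus they kept, with a cell type from Monocle 3 after batch correction. For bulk RNAseq the authors used RSEM (1.3.0) and Bowtie2 (2.2.9), and the deposited expected counts of 46517 genes were rounded to whole numbers. The members and gene lists were chosen with earlier results of these data known. Counting strand is not given in the sources used here, and the nuclei deposited differ in number from those the study describes.

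UMI counts of CA1 nuclei were summed per mouse and compared in edgeR 4.0.16 (R 4.3.3, limma 3.58.1) with filterByExpr, TMM scaling and the quasi-likelihood test, Benjamini-Hochberg adjustment over all genes tested, FC > 2 and FDR < 0.05 (FC > 3 in bulk). SE is the size of the log2 fold change divided by the square root of F. The study's regression over nuclei was not run, since the mouse is the replicate. Interactions of cell type and genotype had 1 coefficient per sample. Numbers of nuclei were tested with the total per sample as library size. With 2 mice per genotype an exact permutation test cannot go below p = 0.333. The study describes its mutants and controls as littermates, without saying which of these mice shared a litter. Doublets were not called. Results for some genes are not reported here. Nuclei with 2 or more markers of another class, or above the 95th percentile of UMIs, were left out as alternatives, as were DESeq2 (1.42.0), RLE scaling, no filter, thinning, a replicate block and each sample in turn. Shares of nuclei have exact 95% intervals, for counting error only, and were repeated after thinning each nucleus to 1500 UMIs. Replicates were not duplicates (chi-square per gene 14.35 and 18.73). The fits were tested before use on simulated data with 200 genes changed. The CA1 comparison recovered 25% of genes changed 2-fold, 86.5% at 3-fold and 96.5% at 4-fold, with 0, 4 and 5 false calls. The differences between types recovered 79.5% to 86% at 4-fold, with 5 to 8 false calls. Genes named are the 4 given markers, *Wls*, *Trps1*, *Cntnap5a*, *Xist*, *Ddx3y*, the 10 lowest p in each direction without overlap, the 10 most enriched, and the 4 most abundant of each list. Members named for a p under 0.05, and genes of the *Tshz2* nuclei and of the differences between types, were chosen after their values were seen. Inhibitory neurons are clusters 5, 12 and 18. Other tools were Python 3.11.15, numpy 2.4.6, pandas 2.3.3, scipy 1.17.1 and matplotlib 3.10.9. Promoter sequences are from RefSeq (GRCm38.p6), and gene positions from the GRCm38 annotation.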

Additional observations from a re-analysis of the deposited data

Results flagged for a closer look

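The genotype difference in CA1 differed from that in another pyramidal type of the same mice for 11 genes that are named here or stand on a list, by edgeR's test of the interaction (FC > 2, FDR < 0.05). Against CA3 the log2 fold change was higher in CA1 by 1.13 for *Ephb1*, 1.81 for *Cpne9*, 1.24 for *C1ql3* and 1.41 for *Camk2d*. *Ephb1* and *Camk2d* were higher in both mutants than in both controls in CA1 and lower in both in CA3, while *C1ql3* overlapped in CA1. Against CA2 it was higher in CA1 by 1.47 for *Unc5d*, 1.11 for *Shisa9*, 2.37 for *Gm15261* and 2.86 for *Sst*, and the difference was -1.40 for *4921539H07Rik*, -1.55 for *1700007F19Rik* and -1.71 for *Erbb4*. *Sst* rests on at most 46 UMIs per mouse in CA2, and *4921539H07Rik* and *1700007F19Rik* overlap each other. No outlier could be looked for with 2 mice per genotype.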

How the results depend on the processing

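With 2 mice per genotype, few counts of calls held under all settings, and the cause was not tested. In the CA1 genotype comparison, where the main test called 0 genes, DESeq2 called 7 higher and 17 lower, the fit without a filter on low counts 7 and 18, and leaving out 1 sample gave 4 to 70 higher and 13 to 27 lower (4 and 27 without control replicate 1, 70 and 22 without control replicate 2). RLE scaling, no scaling factors, FC > 1.5, no fold threshold, thinning, and the other selections of nuclei left it at 0, and nuclei with at least 1500 UMIs are all of them. The log2 fold change of *Wls* stayed between -1.70 and -2.00. Against CA3, 18 genes became 117 without a filter and 11 to 134 without 1 sample (59 without mutant replicate 1, 11 without mutant replicate 2, 134 without control replicate 2). Against CA2, 16 became 48 without a filter and 27 to 114 without 1 sample (56 and 114 without mutant replicates 1 and 2, 27 and 72 without control replicates 1 and 2). Against inhibitory neurons, 0 became 54 without a filter, up to 88 without 1 sample (54 and 88 without mutant replicates 1 and 2, 7 without control replicate 2) and, in a setting added after seeing the data, 2 with all 5 deposited inhibitory clusters.

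The replicate numbers are shared between genotypes, but nothing says that they mark a litter or day. Deviations from the genotype means correlated at r = 0.471 between samples of the same number over 9216 genes, with 2 pairs only, and a fit with the replicate number as a block called 85 genes higher and 39 lower. The crossed pairing, added after seeing the data, called 0. The block changed no call for the share of nuclei or the bulk comparison, and was not run for the differences between types, where each sample has its own term.

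Values near 0 changed sign. *Fibcd1* was at -0.0098 with DESeq2, -0.0071 with RLE scaling, -0.020 without a filter, -0.039 with the block, -0.050 with the crossed block, -0.0084 without nuclei above the 95th percentile, and -0.46 to 0.33 without 1 sample. *Ndst4* was at 0.21 without nuclei carrying 2 markers of another class, 0.055 without those above the 95th percentile, 0.018 without *Tshz2* and *Gm26883* nuclei, and -0.37 to 0.28 without 1 sample. *Gpr161* and *Gm2115* were at 0.067 and 0.028 without nuclei with 2 markers of another class. Leaving out 1 sample gave -0.23 to 0.010 for *Gpr161*, -0.28 to 0.037 for *Gm2115*, -0.37 to 0.35 for *Cntnap5a*, -0.66 to 0.27 for *1700007F19Rik*, -0.13 to 0.33 for *Trps1*, -0.27 to 0.43 for *Slc2a9*, -0.41 to 0.11 for *Stac* and -0.053 to 0.16 for *Tmem200a*. Nuclei with 2 markers of another class were 38.9% and 69.7% of mutant and 53.1% and 82.1% of control CA1 nuclei, in the order of their depth, so this selection also selects by depth. Genes with few UMIs, as *Hspa1b* and *Dsp*, are limited by depth.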
